A study of Mus musculus with 12 samples.

Results

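The neuromuscular junction and denervation genes described here are 10 genes, Chrna1, Chrnb1, Chrnd, Chrne, Musk, Scn4a, Hdac4, Runx1, Gadd45a and Ncam1. They were taken by their gene symbol from the count table of the study. All 10 were found among its 12752 rows, and all 10 were among the 12751 genes tested. No member depended on 1 group to be tested, since the lowest total of a member over the 3 libraries of a group was 92 reads, for Chrnd in DUX_DOX.

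The libraries were made from poly-A RNA of whole tibialis anterior, a fast muscle of the lower leg, of male C57BL/6 mice. At 8 weeks of age every muscle received AAV:TET, an adeno-associated viral vector, by intramuscular injection, together with an empty vector (AAV:MCS) or, in the opposite leg, AAV:Dux. Dux is the mouse counterpart of human DUX4, the transcription factor of facioscapulohumeral muscular dystrophy, and here its transgene is switched by doxycycline. Both vectors were studied on normal chow, in the groups EV and DUX, and on chow with 600 mg/kg doxycycline, in the groups EV_DOX and DUX_DOX, with 3 libraries in each of the 4 groups. Chow was given from 7 days after injection for 2 or 7 days, and the labels do not say which of these times, which vector dose or which promoter applies to the libraries. Whether the 3 libraries of 1 group are 3 mice is not stated either, so that p-values measure the spread between libraries, which may be technical.

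Acetylcholine released by the motor nerve opens a receptor at the fibre surface that is built from the alpha, beta, delta and epsilon subunits encoded by Chrna1, Chrnb1, Chrnd and Chrne. MuSK, the receptor tyrosine kinase encoded by Musk, gathers these receptors below the nerve ending, and the sodium channel Nav1.4, encoded by Scn4a, carries the action potential along the fibre. In an innervated adult fibre the receptor genes are transcribed mainly by the nuclei below the junction. When a mouse or rat muscle loses its nerve, the nuclei along the whole fibre are known to raise a set of genes. Among them are Chrna1, Chrnd, Musk, Myog, Runx1, Ncam1, Gadd45a and Hdac4.

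The start regions of 8 of the 10 genes were matched in RefSeq windows (GRCm38.p6) that run from 250 bases before to 50 bases after the start site, with a pair of windows for Runx1, which is transcribed from separate starts. The 5 windows printed belong to Musk and Runx1, which had the largest rises of the 10 in DUX_DOX, and to the receptor subunit genes Chrna1 and Chrne, which are known for their promoter elements. Capitals mark CAGCTG, the E-box form bound by myogenic factors such as myogenin, CCGGAA, the N-box that mouse Chrne is known to use for transcription below the nerve ending, and TGTGGT, the core of sites bound by RUNX factors, searched on both strands (its reverse complement reads ACCACA). These 3 motifs share no bases with each other in the printed windows.
Chrne (chr11:70619145-70619444, minus strand): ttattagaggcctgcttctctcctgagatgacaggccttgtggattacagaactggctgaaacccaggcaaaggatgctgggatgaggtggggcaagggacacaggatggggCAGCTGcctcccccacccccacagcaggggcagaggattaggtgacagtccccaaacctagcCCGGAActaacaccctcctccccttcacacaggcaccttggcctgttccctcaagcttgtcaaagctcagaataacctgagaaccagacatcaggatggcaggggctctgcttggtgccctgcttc
Chrna1 (chr2:73580289-73580588, minus strand): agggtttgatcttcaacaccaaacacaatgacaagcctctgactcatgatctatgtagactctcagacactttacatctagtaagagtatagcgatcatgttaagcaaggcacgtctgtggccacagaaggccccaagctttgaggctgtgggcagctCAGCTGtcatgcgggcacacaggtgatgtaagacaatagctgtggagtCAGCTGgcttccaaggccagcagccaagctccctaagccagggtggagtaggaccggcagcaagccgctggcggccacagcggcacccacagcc
Musk (chr4:58285712-58286011, plus strand): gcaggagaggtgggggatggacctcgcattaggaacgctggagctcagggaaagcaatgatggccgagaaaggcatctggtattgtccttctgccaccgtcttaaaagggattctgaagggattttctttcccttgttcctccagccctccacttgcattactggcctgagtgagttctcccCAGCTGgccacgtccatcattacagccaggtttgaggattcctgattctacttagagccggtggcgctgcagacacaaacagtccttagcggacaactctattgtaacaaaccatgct
Runx1, distal start (chr16:92826025-92826324, minus strand): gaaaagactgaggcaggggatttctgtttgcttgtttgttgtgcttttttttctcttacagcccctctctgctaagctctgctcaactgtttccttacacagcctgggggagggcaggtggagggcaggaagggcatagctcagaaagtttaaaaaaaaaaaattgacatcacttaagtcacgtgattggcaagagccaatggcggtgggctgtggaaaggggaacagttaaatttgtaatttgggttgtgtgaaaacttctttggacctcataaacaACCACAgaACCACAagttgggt
Runx1, proximal start (chr16:92697280-92697579, minus strand): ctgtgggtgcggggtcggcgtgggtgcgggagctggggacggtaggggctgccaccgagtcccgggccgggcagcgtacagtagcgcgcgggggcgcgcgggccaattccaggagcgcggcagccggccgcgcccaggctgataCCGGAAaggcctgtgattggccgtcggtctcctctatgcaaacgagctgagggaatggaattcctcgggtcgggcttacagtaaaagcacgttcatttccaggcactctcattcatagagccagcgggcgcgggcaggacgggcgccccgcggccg

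The N-box stood at position -76 of the Chrne window, and CAGCTG at position -138. CCGGAA was also found at -106 of the proximal Runx1 window and, in a window not printed, at -23 of Gadd45a. The Chrna1 window held CAGCTG at -92 and -44, and the Musk window held it at -68. The distal Runx1 window held the RUNX core on the reverse strand at positions 29 and 37 after the start site. Of all 32851 windows in the reference table, 14.9% held CCGGAA, 16.3% CAGCTG and 16.8% TGTGGT, so that each of these short words is common. The windows of Scn4a, Hdac4 and Chrnb1 held none of the 3 words. The Scn4a window (chr11:106349341-106349640) and the Hdac4 window (chr1:92180292-92180591) lie inside the annotated genes. On the minus strand these genes begin at 106353288 and 92195699, and the sequence at those starts was not searched. The motif matches describe the letters of the windows and say nothing of binding in these muscles.

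The 12 libraries held 11880593 to 13811999 counts. The state of the switch was read from AW822073, the transcript beside the Dux locus, which had 37, 60 and 46 reads in the DUX_DOX libraries and 0 to 2 reads in each of the other libraries. The 7 markers of muscle fibres, among them Acta1, Ckm and Myh4, summed to 105151 to 139848 CPM per library, so that muscle RNA was present in all groups. Levels are given in CPM, that is, as read counts relative to the scaled total of each library. Fold changes and their standard errors (SE) were taken on the log2 scale from the edgeR quasi-likelihood fit, and a gene was called at a p below 0.05 after Benjamini-Hochberg adjustment across the genes tested. In whole muscle, fewer cells of a type and less RNA per cell cannot be told apart.

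The first comparison asked how the junction and denervation genes stood in muscle with induced Dux, DUX_DOX against EV_DOX. Runx1 rose 3.89-fold, Musk 2.72-fold and Ncam1 1.44-fold, whereas Scn4a and Hdac4 fell by 0.57 and 0.49 on the log2 scale. None of the 4 receptor subunit genes passed the test, and Gadd45a did not pass it either. In all, 5 of the 10 genes were called, 3 higher and 2 lower, where 25.3% of all genes tested were called, 14.9% higher and 10.3% lower. The median log2 fold change of the 10 genes was -0.05, beside a median of -0.01 over all genes tested.

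**Figure D1:**
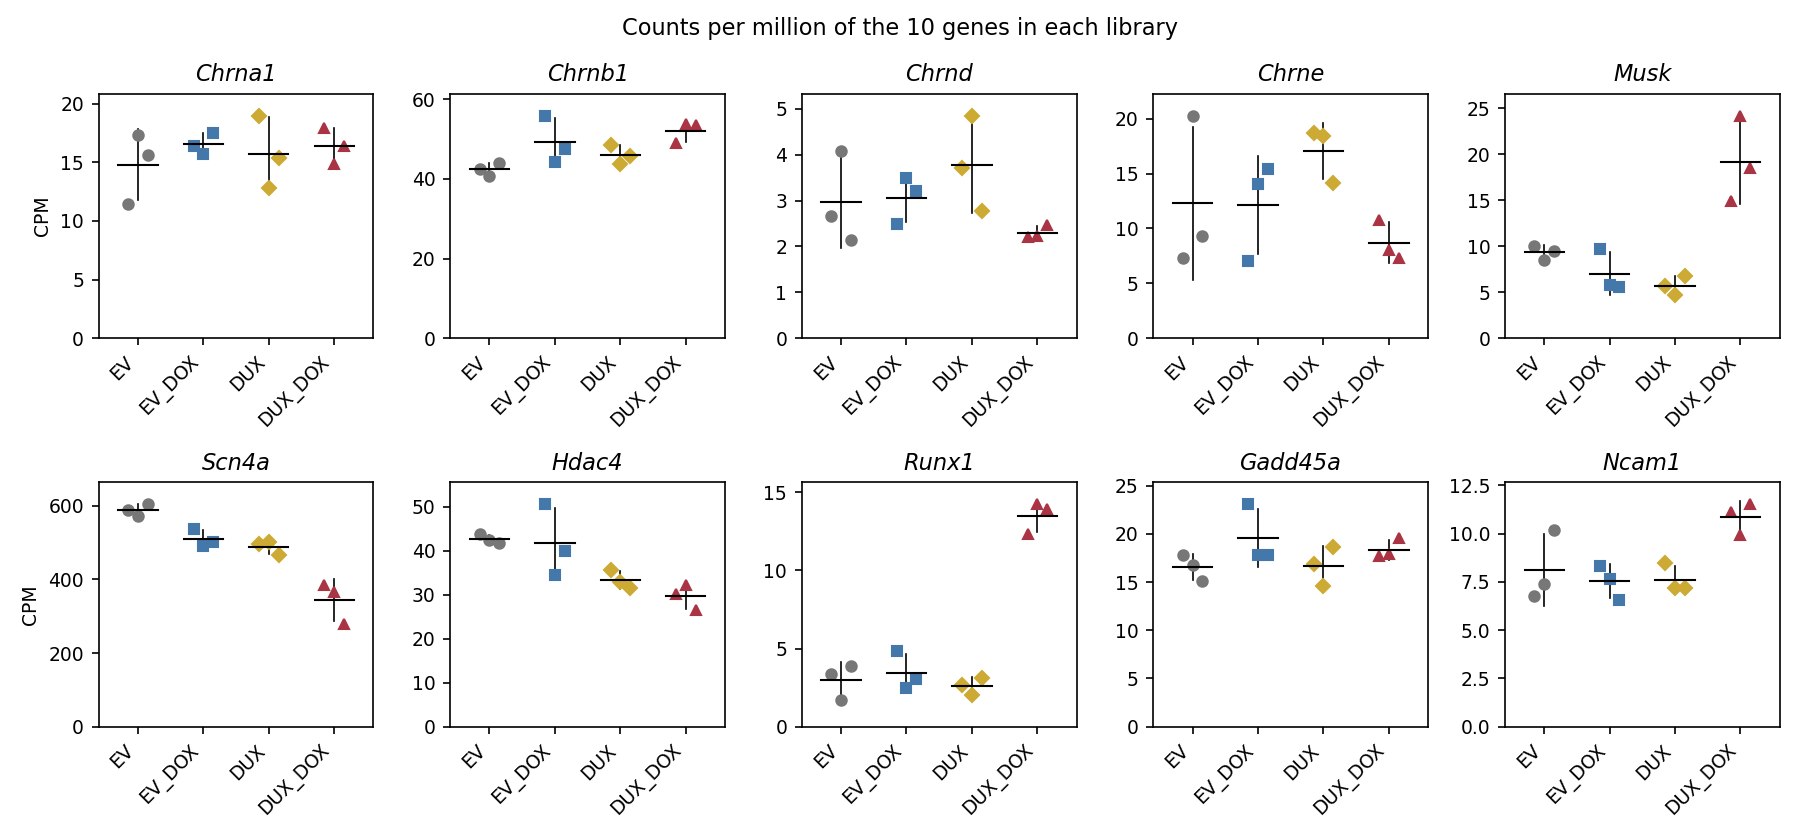
Level of each of the 10 genes in CPM (vertical axes from 0) in the 3 libraries of each group, with the group mean as a horizontal line and the SD as a vertical line. The DUX_DOX libraries lie above all other libraries for Musk (14.9 to 24.2 CPM) and Runx1 (12.3 to 14.2 CPM) and below them for Scn4a (279 to 386 CPM). How many of all genes tested stand apart from all other libraries in this way was not counted.

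The receptor subunits were described first. Chrna1, the alpha subunit that binds acetylcholine (ENSMUSG00000027107, chromosome 2, 73563215 to 73580338, GRCm38), stood at 16.4, 15.7 and 17.5 CPM in EV_DOX and at 17.9, 14.9 and 16.4 CPM in DUX_DOX. The groups overlapped, and the log2 fold change was -0.02 (SE 0.16, 95% interval -0.35 to 0.32, adjusted p = 0.953). Chrnb1, the beta subunit (chromosome 11, 69784036 to 69795943), stood at 55.8, 44.2 and 47.4 CPM in EV_DOX and at 48.9, 53.8 and 53.6 CPM in DUX_DOX. Its log2 fold change was 0.08 (interval -0.11 to 0.28). For both genes the libraries of the groups overlapped, and the intervals leave room for changes up to their bounds.

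Chrne, the epsilon subunit of the adult receptor (chromosome 11, 70614883 to 70619216), varied most among the subunits. It stood at 7.08, 14.02 and 15.4 CPM in EV_DOX and at 10.8, 8.01 and 7.27 CPM in DUX_DOX, and the groups overlapped because of the low first EV_DOX library. The log2 fold change of Chrne was -0.48 (SE 0.34, interval -1.21 to 0.25, adjusted p = 0.323). Chrnd, the delta subunit (chromosome 1, 87190607 to 87200070), stood at 2.48, 3.49 and 3.21 CPM in EV_DOX and at 2.21, 2.22 and 2.47 CPM in DUX_DOX. All 3 DUX_DOX values of Chrnd were below those of EV_DOX, by a narrow margin, with a log2 fold change of -0.41 (SE 0.27, interval -0.98 to 0.17, adjusted p = 0.286). Groups that do not overlap were found for 6 of the 10 genes and for 38.7% of all genes tested.

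Across the 12 libraries, Chrne and Chrnd shared their low libraries, though no group ordered its 3 libraries alike for both genes. In EV, Chrne stood at 7.29, 20.3 and 9.28 CPM, and Chrnd at 2.67, 4.09 and 2.15 CPM, both highest in the second library, and in DUX_DOX the order of the libraries was reversed between the genes. The 6 libraries with the lowest Chrne were the same 6 as those with the lowest Chrnd, namely the 3 DUX_DOX libraries, EV 1, EV 3 and EV_DOX 1. Of these 6 libraries, 3 were among the 6 lowest for Chrna1 and 2 among the 6 lowest for Chrnb1. The highest library exceeded the lowest 2.86-fold for Chrne, 2.26-fold for Chrnd, 1.66-fold for Chrna1 and 1.37-fold for Chrnb1. Chrnd rested on 28 to 63 reads per library, against 93 to 253 for Chrne. The Schwann cell markers, summed over 14 genes such as Mbp and Sox10, ranged from 74.8 CPM in EV_DOX 1 to 249 CPM in EV_DOX 2, and their part in the spread of Chrne and Chrnd was not tested.

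**Figure D2:**
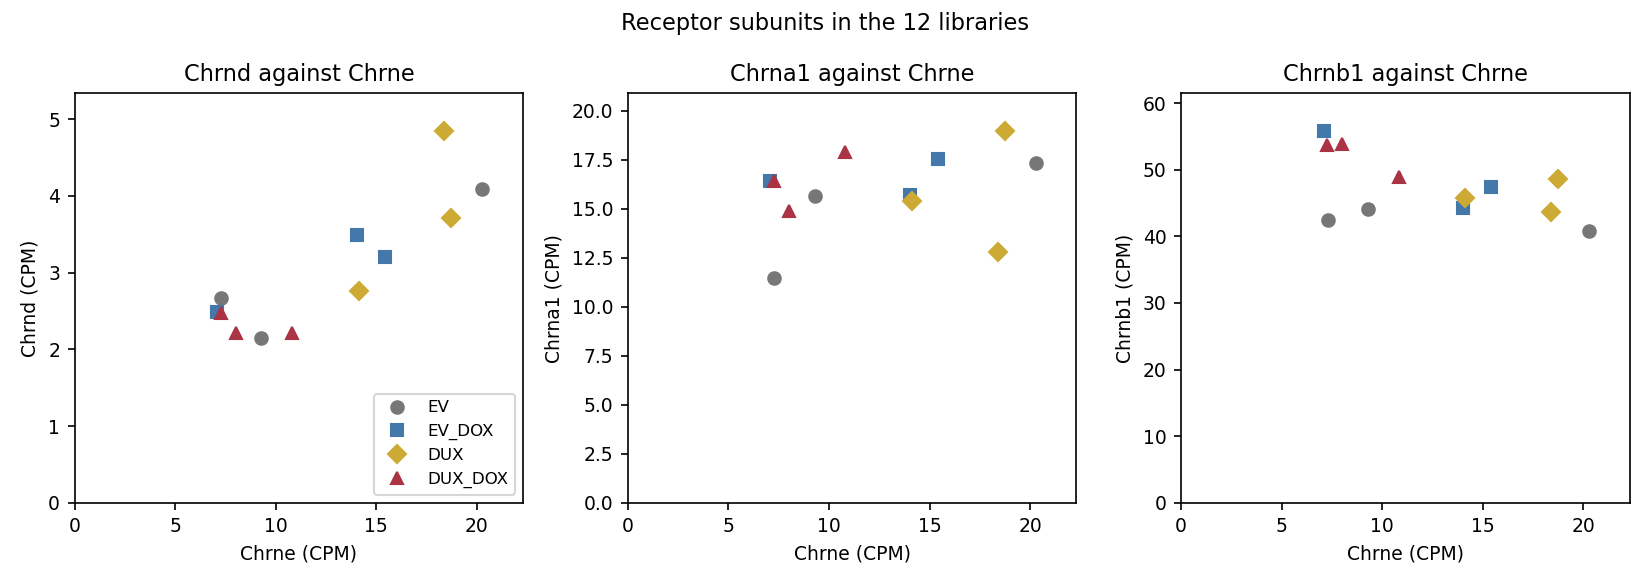
Chrnd, Chrna1 and Chrnb1 (vertical axes, CPM) against Chrne (horizontal axis, CPM), 1 point per library and 1 symbol per group. The same 6 of the 12 libraries are lowest for Chrnd and for Chrne, whereas 3 and 2 of these are among the lowest 6 for Chrna1 and Chrnb1.

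Musk, the kinase that organises the junction (ENSMUSG00000057280, chromosome 4, 58285960 to 58374303), stood at 9.71, 5.81 and 5.56 CPM in EV_DOX and at 14.9, 24.2 and 18.5 CPM in DUX_DOX. Every DUX_DOX library was above every other library, whose highest value was 10.0 CPM, in EV 1. The log2 fold change was 1.45 (SE 0.22, adjusted p = 0.000252). In 20 alternative fits the estimate for Musk ranged from 1.23 to 1.76, and the call was made in all of them.

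Ncam1, a neural cell adhesion molecule that adult fibres carry mainly at the junction (chromosome 9, 49502136 to 49798925), stood at 8.32, 7.67 and 6.57 CPM in EV_DOX and at 11.1, 9.94 and 11.5 CPM in DUX_DOX. The groups did not overlap, though EV 3, on normal chow, reached 10.2 CPM. The log2 fold change was 0.53 (SE 0.16, adjusted p = 0.0251). This call was lost without EV_DOX 2 (adjusted p = 0.0636), EV_DOX 3 (0.0942), DUX_DOX 1 (0.0608) or DUX_DOX 3 (0.0880), in a range of adjusted p from 0.0124 to 0.0942 over the alternatives. Ncam1 is also made by Schwann cells and by satellite cells, the stem cells of muscle. The Schwann markers summed to 74.8 to 249 CPM in EV_DOX and 146 to 190 CPM in DUX_DOX, with 1 of 14 called higher (Egr2, an early response gene as well) and 0 lower. Without EV_DOX 2, in which these markers were highest, 6 of the 14 were called higher, beside 1516 of 12751 genes tested. The 12 satellite cell markers summed to 194 to 265 CPM in EV_DOX and 231 to 260 CPM in DUX_DOX, with Sdc4 and Vcam1 called higher and Chodl lower. Beside the calls of both lists with all libraries, 14.9% of all genes tested were called higher and 10.3% lower. Chodl was not called in limma-voom, nor in edgeR without EV_DOX 1, DUX_DOX 1 or DUX_DOX 3. All markers of both lists were measured, with no marker at 0 in a group, and their part in the level of Ncam1 was not tested.

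Scn4a, the adult sodium channel of the fibre (ENSMUSG00000001027, chromosome 11, 106318592 to 106353288), stood at 537, 491 and 500.5 CPM in EV_DOX and at 386, 366 and 279 CPM in DUX_DOX. No DUX_DOX library reached the lowest of the other 9 libraries, 465 CPM. The log2 fold change of Scn4a was -0.57 (SE 0.11, adjusted p = 0.00163), and it ranged from -0.66 to -0.44 over the alternatives, all with a call.

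Among the regulators that answer to nerve activity, Runx1 changed most. Runx1, a transcription factor that preserves denervated mouse muscle (ENSMUSG00000022952, chromosome 16, 92601466 to 92826149), stood at 4.82, 2.48 and 3.05 CPM in EV_DOX and at 12.3, 14.2 and 13.9 CPM in DUX_DOX. These were 162 to 199 reads per DUX_DOX library against 32 to 66 in EV_DOX, and the groups were far apart. The log2 fold change was 1.96 (SE 0.26, adjusted p = 8.56e-05), from 1.74 to 2.28 over the alternatives. Runx1 is also a factor of blood cells. Of 18 macrophage markers, all measured and none at 0 in a group, 16 were called higher and 0 lower. Of all genes tested, 14.9% were called higher and 10.3% lower. The markers summed to 133 to 191 CPM in EV_DOX and 336 to 491 CPM in DUX_DOX. Without DUX_DOX 3 there were 12 markers called higher, beside 1370 of 12752 genes tested. The median log2 fold change of the markers was 1.19 with all libraries, and their part in the rise of Runx1 was not tested.

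Hdac4, a deacetylase that in mouse muscle links loss of the nerve to Myog by repressing Dach2 (chromosome 1, 91928779 to 92195699), stood at 50.6, 34.5 and 39.9 CPM in EV_DOX and at 30.2, 32.3 and 26.5 CPM in DUX_DOX. Its log2 fold change was -0.49 (SE 0.12, adjusted p = 0.00909), and without the high first EV_DOX library it was -0.33 (adjusted p = 0.0309). Hdac4 stood at 35.6, 32.9 and 31.5 CPM in DUX, so that 1 DUX_DOX library was above the lowest DUX library. Gadd45a, a stress protein of the nucleus that promotes fibre atrophy in mouse muscle (chromosome 6, 67035096 to 67037457), stood at 23.1, 17.8 and 17.8 CPM in EV_DOX and at 17.7, 17.9 and 19.6 CPM in DUX_DOX. EV_DOX 1 was the highest library and the groups overlapped, with a log2 fold change of -0.09 (interval -0.36 to 0.17, adjusted p = 0.618). In the reference annotation Hdac4, Runx1, Gadd45a and Ncam1 share 3536, 106, 337 and 417 exon bases with noncoding genes on the opposite strand, and the sources used here do not say whether reads were counted by strand.

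**Figure D3:**
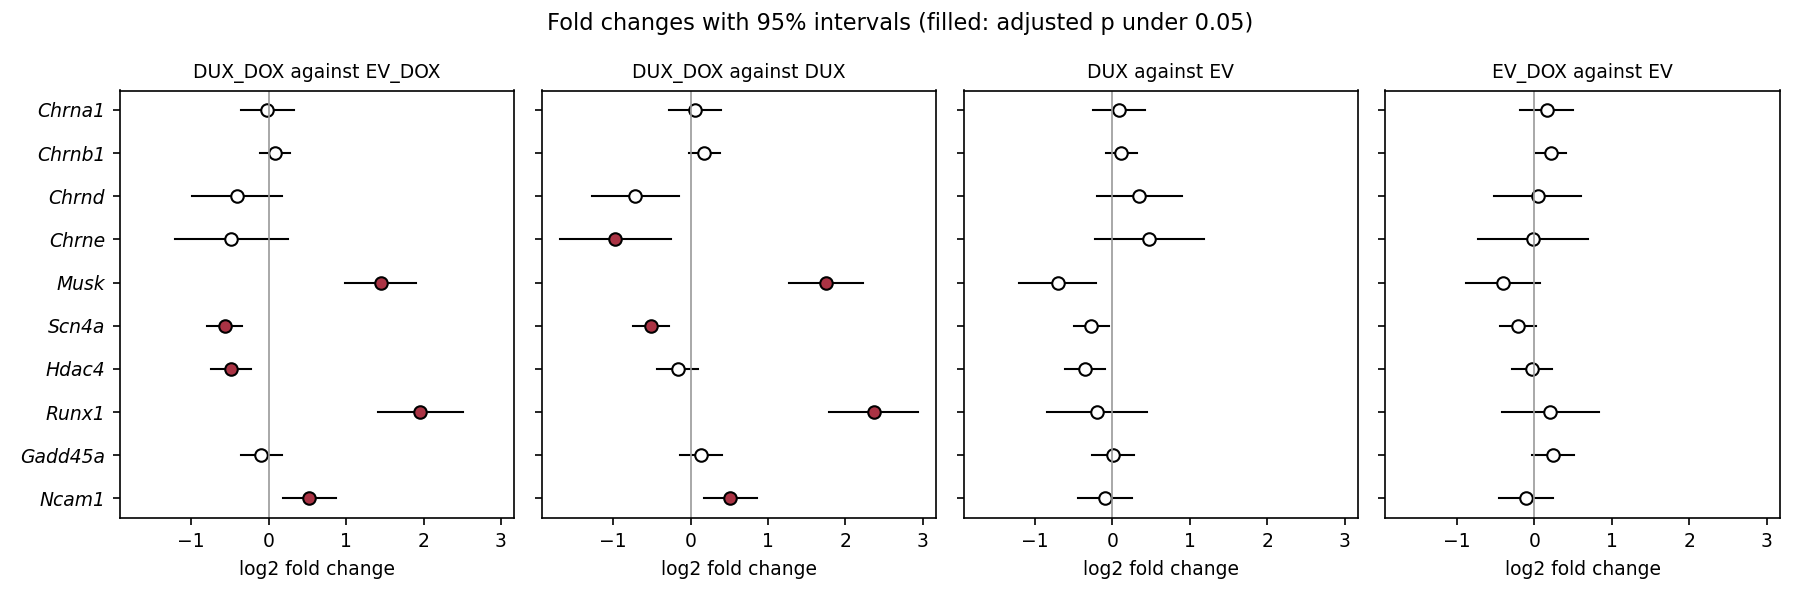
Log2 fold change (horizontal axes) of the 10 genes in the 4 pairwise comparisons, with the 95% interval of the edgeR fit as a line and a filled point for an adjusted p below 0.05. Both comparisons with DUX_DOX show Musk, Runx1 and Ncam1 to the right and Scn4a to the left of 0, and no gene is called in the other comparisons.

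The second comparison, DUX_DOX against DUX, asked the effect of doxycycline in muscle that carried the Dux vector. It shares the DUX_DOX libraries with the first comparison. Runx1 had risen 5.15-fold (log2 fold change 2.37, SE 0.27, adjusted p = 2.24e-05), from 2.69, 2.00 and 3.14 CPM in DUX. Musk had risen 3.36-fold (1.75, SE 0.22, adjusted p = 5.97e-05), from 5.69, 4.69 and 6.72 CPM. Ncam1 rose by 0.52 (SE 0.16, adjusted p = 0.0250), and Scn4a fell by 0.51 (SE 0.11, adjusted p = 0.00311), from 496, 503 and 465 CPM.

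Of the 4 receptor subunits, Chrne alone was called in this comparison. It fell by 0.97 (SE 0.33, adjusted p = 0.0414), from 18.7, 18.4 and 14.1 CPM in DUX, all above the DUX_DOX libraries. The call was lost in the DESeq2 Wald test (adjusted p = 0.0654) and without DUX 1 (0.112), DUX 2 (0.108), DUX 3 (0.0504), DUX_DOX 2 (0.117) or DUX_DOX 3 (0.137). Chrnd stood at 3.72, 4.85 and 2.76 CPM in DUX. It differed by -0.71 on the log2 scale in DUX_DOX (SE 0.26) and missed the threshold (adjusted p = 0.0550), but it was called in 8 of 19 alternatives. Chrna1 and Chrnb1 had log2 fold changes of 0.06 (interval -0.28 to 0.40) and 0.18 (interval -0.01 to 0.37). Hdac4 had -0.17 (adjusted p = 0.324) and Gadd45a 0.14 (adjusted p = 0.436). In all, 3 genes were called higher and 2 lower, where 29.6% of all genes tested were called, 16.5% higher and 13.1% lower. The groups did not overlap for 7 of the 10 genes, and for 48.6% of all genes tested. The count was 3 without DUX 2 and without DUX_DOX 3, where the calls of Chrne and Ncam1 were both lost. Of all genes tested, 21.7% and 21.3% were called in these fits.

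The interaction of vector and chow asked whether the effect of the Dux vector differed between doxycycline and normal chow. It did for Musk, by 2.15 on the log2 scale (SE 0.31, adjusted p = 0.000646), and for Runx1, by 2.16 (SE 0.40, adjusted p = 0.00385). These were 2 of the 10 genes, both with a higher effect on doxycycline chow, where 10.4% of all genes tested were called, 6.97% higher and 3.43% lower. Of these calls 67.0% were higher, or 56.9% with upper-quartile factors, under which both genes were also called. Musk differed in sign between the chows, with a log2 fold change of the Dux vector of 1.45 on doxycycline chow and -0.71 on normal chow, the latter not called. Ncam1 had a difference of 0.62 (adjusted p = 0.0923), Chrnd of -0.76 (0.206), Chrne of -0.96 (0.208) and Scn4a of -0.30 (0.223). Without EV 2, the library with the highest Chrne, the difference for Chrne was -1.52 (adjusted p = 0.0169), in a range of adjusted p from 0.0169 to 0.403 over the alternatives. Chrna1, Chrnb1, Hdac4 and Gadd45a had differences between -0.14 and -0.03, none of them called.

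Without doxycycline, in DUX against EV, none of the 10 genes and 0% of all genes passed the edgeR test. At an unadjusted p below 0.05 there were 3 of the 10 genes, Musk, Hdac4 and Scn4a, where 15.8% of all genes tested had such a p. The DESeq2 Wald test and limma-voom also called 0 of the 10. Musk stood at 10.0, 8.50 and 9.44 CPM in EV and was lower in all 3 DUX libraries, with an estimate of -0.71 on the log2 scale (SE 0.23, adjusted p = 0.215). Hdac4 stood at 43.7, 42.5 and 41.7 CPM in EV, above all DUX libraries, with -0.36 (SE 0.12, adjusted p = 0.223). Scn4a stood at 589.6, 572 and 604 CPM in EV, also above all DUX libraries, with -0.27 (SE 0.11, adjusted p = 0.259). Groups without overlap were found for these 3 genes and for 22.9% of all genes tested. Of the receptor subunits, Chrne had a log2 fold change of 0.48 (interval -0.22 to 1.18) and Chrnb1 of 0.12 (interval -0.08 to 0.31).

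Doxycycline chow in empty vector muscle, EV_DOX against EV, called none of the 10 genes in edgeR, DESeq2 or limma-voom, where 0.0392% of all genes tested were called in edgeR. Chrnb1 was the single member with an unadjusted p below 0.05, a share set beside 7.83% of all genes tested, with an estimate of 0.21 on the log2 scale (SE 0.09, adjusted p = 0.600). The log2 fold change of Musk was -0.40 (SE 0.22, adjusted p = 0.671) and that of Scn4a -0.21 (SE 0.11, adjusted p = 0.666). The groups did not overlap for 3 of the 10 genes, Chrnb1, Scn4a and Gadd45a, and for 12.1% of all genes tested. Scn4a was thus highest in EV, at a mean of 588 CPM, lower in EV_DOX (509 CPM) and DUX (488 CPM), and lowest in DUX_DOX (344 CPM), where the difference between EV_DOX and DUX is within the spread of their libraries.

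The other genes of the junction were called in both directions in DUX_DOX against EV_DOX. Of 32 genes listed, 29 were measured, and 3 of these rose and 3 fell. Of all genes tested, 14.9% were called higher and 10.3% lower. The 29 genes had a median log2 fold change of -0.05. Sntb1, the syntrophin beta 1 of the dystrophin complex, rose by 1.32 (SE 0.23, adjusted p = 0.00103), from 4.02 CPM or less in each EV_DOX library to 5.87 CPM or more in each DUX_DOX library. Crkl, an adaptor that acts with Dok7 at the mouse junction, rose by 0.39 (SE 0.09), and Nes, the intermediate filament protein nestin, by 0.34 (SE 0.10). Lrp4, the receptor through which agrin reaches MuSK, fell by 0.76 (SE 0.16, adjusted p = 0.00300), from 22.3, 14.9 and 15.7 CPM in EV_DOX to 10.1, 9.44 and 11.9 CPM in DUX_DOX. Dtna, alpha-dystrobrevin, fell by 0.40 (SE 0.07), and Pak1, a kinase of the actin skeleton, fell by 0.40 (SE 0.14). Without EV_DOX 1 the counts were 4 higher and 5 lower, and without EV_DOX 2 they were 2 and 5. Without DUX_DOX 1 they were 2 and 2. Of all genes tested, 25%, 22.2% and 23.4% were called in these fits, in either direction. In DUX_DOX against DUX, 4 of the 29 genes were called higher and 7 lower, with a median log2 fold change of -0.14. Of all genes tested, 16.5% were called higher and 13.1% lower in that comparison. Lrp4 and Musk, partners in 1 receptor complex, were thus called in opposite directions, and both calls were also made against DUX (Lrp4 log2 fold change -0.64, adjusted p = 0.00744).

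Rapsn, Dok7, Agrn, Colq and Ache were not called against EV_DOX. Rapsn, which anchors the receptor, had a log2 fold change of -0.07 (interval -0.27 to 0.13), and Dok7, the activator of MuSK inside the fibre, of 0.13 (interval -0.10 to 0.36). Agrn, which encodes agrin, had -0.24 (adjusted p = 0.268), and Colq, the tail that tethers acetylcholinesterase, had -0.04 (interval -0.72 to 0.64). Ache, the acetylcholinesterase gene, had -0.21 (adjusted p = 0.158), and in DUX_DOX against DUX it fell by 0.37 (SE 0.10, adjusted p = 0.0159). Chrng, the subunit of the fetal receptor, Erbb4 and Nrg1 were not analysed here.

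Of 25 other genes that respond to denervation, 22 were measured, and 8 of these rose and 2 fell in DUX_DOX against EV_DOX, beside 14.9% higher and 10.3% lower of all genes tested. Their median log2 fold change was 0.12, and it was 0.04 without EV_DOX 3 and 0.23 without EV_DOX 1. Myog, the myogenic factor myogenin, rose by 1.11 (SE 0.17, adjusted p = 0.000327), from 3.07, 3.33 and 3.29 CPM to 6.40, 6.15 and 8.42 CPM. Myod1, the related factor MyoD, rose by 0.42 (SE 0.13, adjusted p = 0.0245). The smallest p-values belonged to Ankrd1, a repeat protein raised by stretch and stress, which rose by 5.74 (SE 0.35), Tnfrsf12a, the receptor of the cytokine TWEAK, which rose by 3.80 (SE 0.33), and Atf4, a factor of the integrated stress response that in mouse muscle acts on Gadd45a, which rose by 0.83 (SE 0.09). These 3 are known to respond to many stresses besides denervation. Atf4 stood at 120 to 143 CPM in EV_DOX and at 230.3 to 254 CPM in DUX_DOX, while Gadd45a itself was not called. Fbxo32, the ubiquitin ligase atrogin-1, which denervated muscle is known to raise, fell by 0.94 (SE 0.19, adjusted p = 0.00233), and Mef2a, a muscle transcription factor, fell by 0.26 (SE 0.09). Leaving out 1 library at a time gave 6 to 8 genes higher and 1 to 3 lower. There was 1 lower without EV_DOX 2, EV_DOX 3, any DUX library, DUX_DOX 1 or DUX_DOX 3. Of all genes tested, 16.5% to 26.3% were called in the fits with 1 library left out, in either direction. Dach2, the repressor of Myog and target of Hdac4, is named after its values were seen. It differed by -1.20 on the log2 scale from EV_DOX (SE 0.47, adjusted p = 0.0783) and fell by 1.82 (SE 0.45, adjusted p = 0.00788) against DUX.

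Scn4a was accompanied by other genes of fibre excitability. Of 13 measured, 6 fell and 1 rose in DUX_DOX against EV_DOX, where 10.3% of all genes tested were called lower and 14.9% higher. The 13 genes had a median log2 fold change of -0.28. Without DUX_DOX 3 there were 4 that fell, beside 739 of 12752 genes tested. Clcn1, the chloride channel of the fibre membrane, fell by 0.65 (SE 0.10, adjusted p = 0.000251), from 205 to 218 CPM in EV_DOX to 123 to 160 CPM in DUX_DOX. Beside these falls, the 7 fibre markers summed to 124400.0 to 139623 CPM in EV_DOX and 105151 to 116460.0 CPM in DUX_DOX. Of the 7, 1 was called lower (Pvalb), and their median log2 fold change was -0.29. The count called lower depended on the setting. It was 6 in the DESeq2 Wald test, 4 in limma-voom, 4 with upper-quartile and 3 with RLE factors, and 0 with only the groups compared or with the replicate block within each chow. It was 4 without EV_DOX 1, 2 without DUX_DOX 1, and 0 without EV_DOX 2 or DUX_DOX 3. Of all genes tested, 16.5% to 26.3% were called in these settings, in either direction. The part of the 7 fibre markers in the lower level of Scn4a was not tested.

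**Figure D4:**
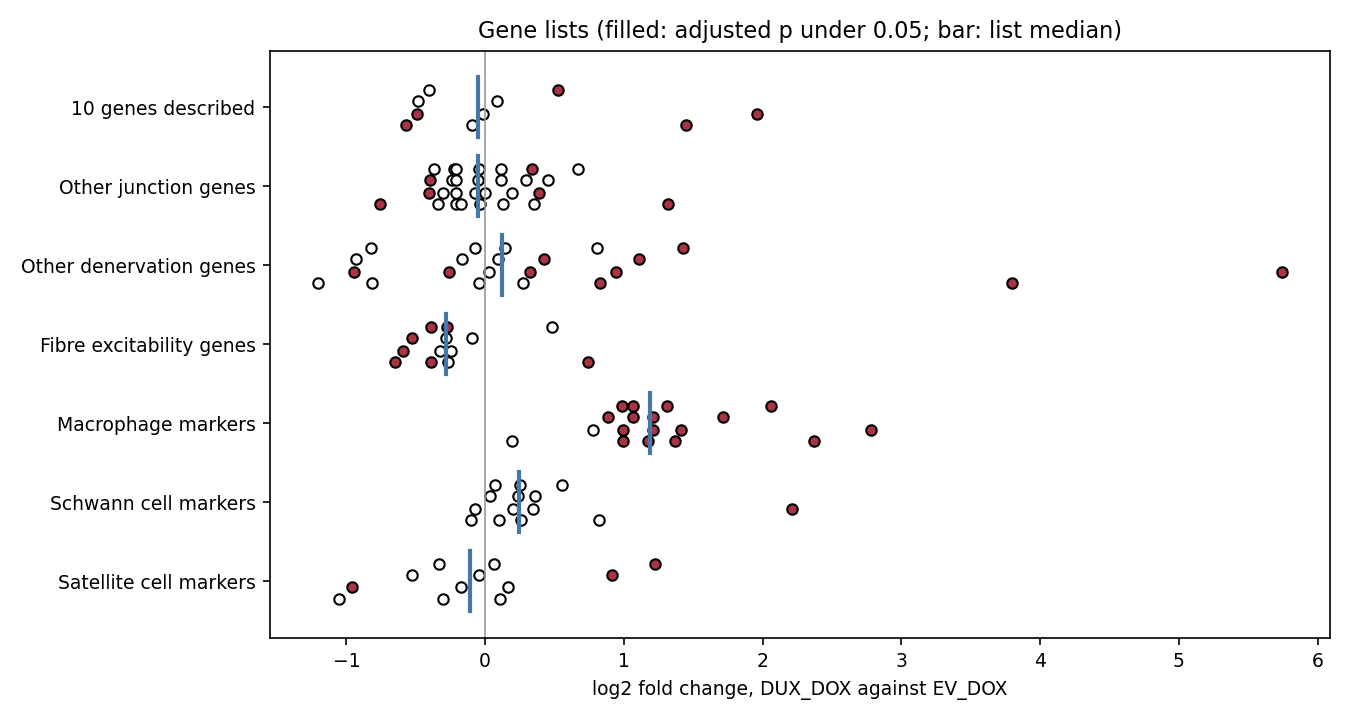
Log2 fold change in DUX_DOX against EV_DOX (horizontal axis) of the 10 genes and of 6 lists, 1 point per gene, filled for an adjusted p below 0.05, with the median of each list as a bar. The other junction genes centre near 0 (median -0.05), the excitability genes lie lower (-0.28) and the macrophage markers higher (1.19).

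Levels of different genes were compared as CPM per kilobase of annotated exon. In EV_DOX, Scn4a was the most abundant of the 10 at 72.4 CPM per kilobase, followed by Chrnb1 (19.4), Gadd45a (11.1), Chrne (7.20), Chrna1 (3.78), Hdac4 (2.64), Musk (1.86), Chrnd (0.930), Ncam1 (0.868) and Runx1 (0.287). The ranges of Hdac4 and Musk overlapped, as did those of Chrnd and Ncam1, and the other neighbours in this order were separate. In DUX_DOX, Musk reached 5.08 CPM per kilobase (SD 1.23), with a range that overlapped those of Chrne (5.15) and Chrna1 (3.74). Runx1, at 1.12 CPM per kilobase (SD 0.0841), overlapped Ncam1 (1.25) and lay above Chrnd (0.699). The receptor subunits kept the order Chrnb1, Chrne, Chrna1 and Chrnd in all 4 groups by their means.

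The genes whose log2 CPM followed the 3 members of smallest p most closely over the 12 libraries were named as a description. For Runx1 they were Dtl (r = 0.990) and Itgb1 (r = 0.986), for Musk Dennd5a (r = 0.973) and Herc4 (r = 0.971), and for Scn4a Abcc9 (r = 0.991) and D5Ertd579e (r = 0.989). The 12 points share 4 groups, and for Runx1 the 3 DUX_DOX libraries stand apart from the other 9, so that these coefficients rest largely on that group.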

How the data were processed

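The deposited values are raw read counts per gene. Per the submitters' processing notes, the authors used bcl2fastq 2.17.1.14, STAR, featureCounts and the GRCm38 build. The sources used here give no other versions and neither the annotation nor the strand setting behind the counts. No gene in the table averages under 10.0 counts, and genes rarer than this were not analysed here. Columns were mapped to samples by name. Pairs of libraries within a group differed beyond sampling noise (chi-square per degree of freedom 4.82 to 25.5).

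All 12 libraries entered 1 quasi-likelihood fit in edgeR 4.0.16 under R 4.3.3 (two-sided F tests, TMM factors 0.916 to 1.12, default low-count filter, 1 mean per group). P-values were adjusted by Benjamini-Hochberg over 12751 genes within each comparison. Standard errors and 95% intervals come from the F statistic, and log2 CPM used a prior count of 2. Alternatives were RLE and upper-quartile factors, no filter, DESeq2 1.42.0, limma-voom (limma 3.58.1), only the groups compared, replicate blocks and leaving out each library. The steps were tested on simulated data.

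Coordinates and exon lengths (union of all exons) come from GENCODE M21 (GRCm38), which holds 12723 of the identifiers, and promoter windows from RefSeq. Besides the 10 genes and AW822073, the text names up to 3 rising and 3 falling genes of smallest p per pathway list in DUX_DOX against EV_DOX, 9 fixed junction and myogenic genes, and the 2 genes most correlated with each of 3 members. Some excitability genes within this rule are not reported here. The members and lists were chosen with earlier results of these data known. The fibro-adipogenic markers had 2 of 10 called higher and 0 lower in DUX_DOX against EV_DOX, beside 14.9% higher and 10.3% lower of all genes tested.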

Additional observations from a re-analysis of the deposited data

Results flagged for a closer look

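The effect of the Dux vector differed between doxycycline and normal chow by a test of the difference itself for 2 of the 10 genes. Of all genes tested, 10.4% were called in this test. For Musk the difference was 2.15 on the log2 scale, with all 3 DUX_DOX libraries above EV_DOX and all 3 DUX libraries below EV. For Runx1 it was 2.16, with all 3 DUX_DOX libraries above EV_DOX and overlapping values in DUX and EV. Both were called in all 19 alternatives, with adjusted p up to 0.00380 for Musk and 0.0166 for Runx1. With 3 libraries per group, each library was left out in turn, but none was tested as an outlier.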

How the results depend on the processing

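Of 970 fits of single genes under the alternatives, 947 kept their side of the threshold, 14 lost a call, 9 gained one and 0 called genes changed sign. The changes concern Ncam1, Chrne and Chrnd. The count includes DUX against EV and EV_DOX against EV, which had no member call to lose. It also includes fits without a library of a group not compared, which hardly move an estimate. The total thus says little about single calls. Ncam1 lost its call against EV_DOX in 4 of 20 alternatives, and Chrne against DUX in 6 of 19. Leaving out 1 library at a time gave 4 to 5 called genes of the 10 in DUX_DOX against EV_DOX and 3 to 6 in DUX_DOX against DUX. It gave 2 to 3 in the interaction and 0 to 0 in the other comparisons. Of all genes tested, these fits called 16.5% to 26.3%, 21.3% to 32.6%, 6.38% to 16.8% and at most 0.925%. Normalization, filter, tool and the choice of groups gave 5 in the first comparison, 4 (DESeq2) to 6 in the second and 2 in the interaction. The shares of all genes called were 18.7% to 26.3%, 27.7% to 35.5% and 10.4% to 11.8%. Upper-quartile factors put 50.9% of all calls in DUX_DOX against EV_DOX higher, against 59.1% with TMM. Over all genes, DUX_DOX against EV_DOX had 3224 calls, and 2109 without DUX_DOX 3. The interaction had 1326 calls, and 813 (without EV 3) to 2148 (without EV_DOX 1) with 1 library left out. DUX against EV had 0, but 153 with DESeq2 and 118 without EV 2. EV_DOX against EV had 5 calls in edgeR, 0 in limma-voom, 12 with DESeq2 and 0 to 10 with 1 library left out.

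The vectors were injected into opposite legs, so that EV and DUX libraries on the same chow may come from the same mice. The labels do not say whether the replicate numbers pair them, and the main fit used no pairing. Deviations of same-numbered libraries on the same chow correlated from -0.11 to 0.18, over 0.1 in 2 of 6 pairs. Among the 3 libraries of the other vector on the same chow, 5 of 12 libraries correlated best with their own number. With so few candidates this check cannot settle the pairing. With the replicate number as a block within each chow, 5 genes were called in DUX_DOX against EV_DOX, 0 in DUX against EV and 2 in the interaction. Of all genes tested, 22.1%, 0% and 7.9% were called in that fit. With the block over all groups the counts were 5, 0 and 2, with 6 in DUX_DOX against DUX and 0 in EV_DOX against EV. The shares of all genes were 23.8%, 0% and 8.69%, with 28.4% in DUX_DOX against DUX and 0% in EV_DOX against EV. Depth limits Chrnd, with 28 to 63 reads per library, and Runx1, with 21 reads in its lowest library.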
